A study of Mus musculus with 16 samples.

Results

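The hepatocyte transcription factors described here are 8 genes, Hnf4a, Foxa1, Foxa2, Foxa3, Onecut1, Onecut2, Nr5a2 and Prox1. They were taken by name, from a list drawn up with earlier results of these data known, and found by matching the Ensembl identifiers of the deposited count table to mouse gene symbols. The table held 48709 identifiers, and all 8 genes were among them. The mice were 8 untreated females of the strain C57BL/6J, aged 3 to 6 months, and RNA was sequenced from their livers and hearts. In 4 of the mice, the quadruple knockouts (QKO), the 4 genes of methionine sulfoxide reductases, Msra, Msrb1, Msrb2 and Msrb3, had been targeted, and the other 4 mice were wild type (WT). The enzymes return oxidised methionine in proteins to methionine. The 4 groups, each with 4 libraries from 4 animals, were QKO liver, WT liver, QKO heart and WT heart, and the same animals gave both tissues. How the knockout alleles were made is not given in the sources used here.

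Hepatocyte identity rests on a small network of transcription factors that bind the promoters and enhancers of liver genes and of one another. HNF4A is a nuclear receptor that drives genes of apolipoproteins, clotting factors and bile acid synthesis. The FOXA proteins are forkhead factors able to bind closed chromatin, and in the mouse FOXA1 and FOXA2 together are needed for the liver to form. ONECUT1, also called HNF6, and its paralog ONECUT2 act in the development of hepatocytes and bile ducts. NR5A2, also called LRH-1, is a nuclear receptor of bile acid and cholesterol genes. PROX1 is a homeobox factor of hepatocytes that is also known from lymphatic endothelium and, in the mouse, from heart muscle.

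The liver libraries held 37.9 M to 67.9 M counts each, of which 21.6 M to 40.7 M fell on protein-coding genes, and the hearts 42.1 M to 72.6 M, of which 7.71 M to 28.1 M did. The 2 hearts numbered 4 stood apart, with 28.1 M in QKO heart 4 and 26.4 M in WT heart 4, against 13.2 M at most in the other hearts. Among the targeted genes, Msrb2 averaged 0.0298 counts per 1 M (CPM) in QKO liver and 4.51 CPM in WT liver, and 0.160 CPM in QKO heart and 12.7 CPM in WT heart. Msrb3 averaged 2.26 CPM in QKO liver and 8.96 CPM in WT liver, and 7.80 CPM in QKO heart and 47.4 CPM in WT heart. Msra averaged 34.3 CPM in QKO liver and 56.3 CPM in WT liver, and 7.10 CPM in QKO heart and 10.1 CPM in WT heart. Msrb1 averaged 76.5 CPM in QKO liver and 99.9 CPM in WT liver, but in heart it went against the label, with 20.9 CPM in QKO heart and 14.9 CPM in WT heart (log2 0.48, SE 0.082, edgeR adjusted p = 0.0337). Transcripts of the 17 hepatocyte markers summed to 127700 to 145200 per 1 M protein-coding counts in QKO liver and 124300 to 132200 in WT liver, and those of the 12 heart muscle markers to 179000 to 181000 in QKO heart and 163100 to 176300 in WT heart. The tissues thus carried their labelled markers. The 12 markers of pancreatic acinar cells were nearly absent from the QKO livers, where they summed to 7.88 to 14.8 per 1 M protein-coding counts. In WT livers 1 to 4 their sums were 10.2, 9.08, 1760 and 511.2. WT liver 4 also had 542.1 of the 9 skeletal muscle markers on this scale. Fold changes of the factors between QKO and WT livers, levels per kb, family shares and medians of target genes are given with and without WT livers 3 and 4. Leaving them out leaves WT livers of animal series 47 alone, the animals whose numbers begin with 47, beside QKO livers of series 47 and 48. The protein-coding counts leave out Lars2, which held 0.022% to 19.4% of the protein-coding count in hearts and 0.003% to 0.011% in livers. The scale per 1 M also leaves out mitochondrial genes, with 9.95% to 13.7% in hearts and 1.09% to 1.59% in livers.

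None of the 8 factors passed the test of QKO against WT in liver, and none of the 4 that could be tested did in heart. Between tissues, 7 of the 8 were far higher in liver than in heart in each genotype, and Prox1 was not. The values behind these statements follow by gene family, in the order of the roles named above. Levels were computed in CPM after TMM scaling of the library sizes. Fold changes and p-values came from the quasi-likelihood F test of edgeR on the counts, with Benjamini-Hochberg adjustment over all genes tested and a threshold of 0.05 on the adjusted p. In QKO over WT liver, 15 of 17738 genes tested passed (0.0846%), and in heart 28 of 16974 (0.165%).

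Hnf4a lies on chromosome 2, from 163506808 to 163572910 on the plus strand (GENCODE release M21 on GRCm38). Foxa2 lies on the minus strand of the same chromosome, from 148042877 to 148046969, and Foxa1 on the minus strand of chromosome 12, from 57540628 to 57546916. For each of these 3 genes, the promoter window that held a motif of the FOXA or ONECUT factors is shown. Each window has 250 bases before and 50 after the RefSeq gene start on GRCm38.p6, and is written 5′ to 3′ on the strand of its gene, with matches in capitals. The Hnf4a window is chr2:163506607-163506906 on the plus strand, the Foxa2 window chr2:148046920-148047219 on the minus strand, and the Foxa1 window chr12:57546062-57546361 on the minus strand.
Hnf4a: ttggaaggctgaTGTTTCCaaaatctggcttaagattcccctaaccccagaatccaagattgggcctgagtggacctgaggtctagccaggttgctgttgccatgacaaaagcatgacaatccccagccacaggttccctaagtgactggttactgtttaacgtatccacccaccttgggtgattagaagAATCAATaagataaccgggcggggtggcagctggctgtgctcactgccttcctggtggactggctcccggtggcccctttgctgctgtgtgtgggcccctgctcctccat
Foxa2: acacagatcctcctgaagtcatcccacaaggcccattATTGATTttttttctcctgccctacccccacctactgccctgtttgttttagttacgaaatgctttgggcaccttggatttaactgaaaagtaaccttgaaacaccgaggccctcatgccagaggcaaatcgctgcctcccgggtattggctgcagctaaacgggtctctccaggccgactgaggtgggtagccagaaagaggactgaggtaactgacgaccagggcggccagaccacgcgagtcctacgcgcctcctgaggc
Foxa1: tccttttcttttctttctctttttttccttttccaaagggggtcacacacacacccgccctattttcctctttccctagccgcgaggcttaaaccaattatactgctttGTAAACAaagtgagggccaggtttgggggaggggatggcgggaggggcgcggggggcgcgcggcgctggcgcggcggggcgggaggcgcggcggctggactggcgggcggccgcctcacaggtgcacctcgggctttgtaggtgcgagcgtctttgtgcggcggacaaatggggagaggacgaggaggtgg

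Both strands were searched for TGTTTNC, a forkhead motif, ATTGATT, a core of the ONECUT site, CAAAGTNCA for HNF4A and CAAGGTCA for NR5A2. The Hnf4a window held TGTTTCC at -238 and AATCAAT, the ONECUT letters on the opposite strand, at -60 relative to the gene start. The Foxa2 window held ATTGATT at -213, and the Foxa1 window held GTAAACA, the forkhead letters on the opposite strand, at -141. A forkhead match was also found at -120 in a window of Prox1 that is not shown, and the 2 motifs did not overlap in any window. RefSeq gave 12 windows for 7 of the 8 genes, and the other windows of Hnf4a and Foxa2 held no match. The letters TGTTTNC occurred in 20.5% of 32851 promoter windows of 27025 genes, ATTGATT in 2.86%, CAAAGTNCA in 1.41% and CAAGGTCA in 1.56%. The windows of the members held no match to CAAAGTNCA or CAAGGTCA. A match is a description of the letters and was not tested for binding.

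Hnf4a had the highest level per kb of exon of the 8 in liver. Its level was 195, 254, 317 and 345 CPM in QKO livers 1 to 4, against 219, 256, 294 and 332 CPM in WT livers 1 to 4. The groups overlapped over nearly their whole range, and in each the libraries numbered 3 and 4 were the higher ones. QKO over WT, its log2 fold change was 0.01 with a standard error (SE) of 0.20 and a 95% interval of -0.43 to 0.44 (edgeR, adjusted p = 0.9997), and it was 0.23 without WT livers 3 and 4. The antisense gene Hnf4aos overlaps the Hnf4a locus without sharing exon sequence.

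The forkhead factors differed among themselves. Foxa2 had 9.78, 6.96, 13.1 and 18.8 CPM in QKO livers 1 to 4, against 6.59, 6.24, 7.43 and 8.19 CPM in WT livers 1 to 4. Of the 4 QKO livers, 3 lay above the highest WT liver and 1 within the WT range, so the groups overlapped. For Foxa2 the log2 fold change was 0.77 (SE 0.26, 95% interval 0.21 to 1.33), with an unadjusted p of 0.0115 and an adjusted p of 0.9997 in edgeR. In all, 583 of the 17738 genes had an unadjusted p under 0.05 in this comparison. Within the animals whose numbers begin with 48 the log2 fold change of Foxa2 was 1.04, and within those whose numbers begin with 47 it was 0.37, with 2 animals per group and adjusted p of 0.3835 and 0.7944 in edgeR. It was 0.92 (adjusted p = 0.7685) without WT livers 3 and 4.

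Foxa3, on the minus strand of chromosome 7 from 19013284 to 19023538, had 26.8, 26.3, 45.2 and 32.2 CPM in QKO livers 1 to 4, against 23.3, 28.3, 37.5 and 70.9 CPM in WT livers 1 to 4. All QKO livers lay inside the WT range, which was set at its upper end by WT liver 4. Its log2 fold change was -0.30 (SE 0.31, 95% interval -0.98 to 0.38, edgeR adjusted p = 0.9997), and it turned to 0.34 without WT livers 3 and 4. Foxa1, with the lowest mean per kb, had 2.74, 1.51, 2.09 and 3.52 CPM in QKO livers 1 to 4 and 1.48, 2.03, 3.36 and 2.19 CPM in WT livers 1 to 4. Its groups overlapped, and the log2 fold change was 0.11 (SE 0.30, edgeR adjusted p = 0.9997), or 0.48 without WT livers 3 and 4.

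Per kb of merged exons, which allows levels to be set side by side between genes, Foxa3 made up 73.5% ± 7.1 of the 3 Foxa genes in QKO livers and 82.5% ± 4.9 in WT livers (SD, n = 4). Foxa2 made up 23.1% ± 6.3 in QKO livers and 14.3% ± 4.2 in WT livers, and the rest was Foxa1. Foxa3 thus held the largest share of the family in every liver, from 63.7% to 79.2% in QKO livers and from 78.0% to 89.4% in WT livers. In WT livers 1 and 2 alone, Foxa3 made up 78.0% and 81.1% and Foxa2 18.98% and 15.4%. These shares were not tested.

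Onecut1 had the widest spread of the 8 factors in liver. It lies on the plus strand of chromosome 9, from 74861921 to 74891781, and had 18.8, 6.62, 19.3 and 37.4 CPM in QKO livers 1 to 4. In WT livers 1 to 4 it had 2.88, 2.86, 9.60 and 14.7 CPM. Of the QKO livers, 3 lay above the highest WT liver, QKO liver 2 lay inside the WT range, and the highest QKO liver was 5.64 times the lowest, against 5.13 times among WT livers. For Onecut1 this gave a log2 fold change of 1.45 (SE 0.57, 95% interval 0.20 to 2.69), with an unadjusted p of 0.0263 and an edgeR adjusted p of 0.9997. It was 1.23 within the animals of series 48 and 2.14 within those of series 47 (adjusted p of 0.5858 and 0.1534, 2 animals per group), and 2.83 (adjusted p = 0.2466) without WT livers 3 and 4.

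A long noncoding RNA gene on the same strand, Gm20649, shares 2171 bases of exon with Onecut1, which are 52.8% of the Onecut1 exons. Its liver counts were 70.3% to 77.5% of those of Onecut1 in QKO livers and 73.9% to 93.8% in WT livers. Its log2 fold change in liver was 1.34 (SE 0.52, edgeR adjusted p = 0.9997). How reads in the shared exons were assigned is not given in the sources used here, so the level of Onecut1 is uncertain to that extent. The 11 markers of bile duct cells, which also express Onecut1, summed to 32.3 to 73.1 per 1 M protein-coding counts in QKO livers and 40.8 to 81.3 in WT livers. Most of each sum was Spp1, with 25.6 to 53.4 in QKO livers and 31.2 to 66.5 in WT livers. QKO liver 2 had the highest level of Krt19, with 11.03, against 1.09 to 1.54 in the other QKO livers and 1.22 to 3.91 in WT livers, and also of Epcam, Ehf, Krt7, Tspan8, Cldn7 and Cftr. Onecut1 was lowest among the QKO livers in that library. The part of these cells in the value was not tested.

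Onecut2, on the plus strand of chromosome 18 from 64340020 to 64400987, varied less than Onecut1. It had 44.2, 48.1, 36.0 and 53.4 CPM in QKO livers 1 to 4, against 38.4, 34.1, 61.3 and 36.4 CPM in WT livers 1 to 4. All QKO livers lay inside the WT range, whose upper end was WT liver 3, the library with the most acinar transcripts. QKO over WT, the change was 0.09 on the log2 scale (SE 0.20, 95% interval -0.35 to 0.53, edgeR adjusted p = 0.9997), or 0.32 without WT livers 3 and 4. Per kb, Onecut1 made up 59.8% ± 16.96 of the sum of the pair in QKO livers and 36.8% ± 17.8 in WT livers (SD, n = 4), with ranges of 35.2% to 73.4% in QKO livers and 22.9% to 61.4% in WT livers that overlapped. In WT livers 1 and 2 alone the share of Onecut1 was 22.9% and 24.9%.

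Nr5a2 had the narrowest interval of the 8 factors. It lies on the minus strand of chromosome 1, from 136842571 to 136960448, and had 30.0, 36.3, 26.1 and 32.0 CPM in QKO livers 1 to 4, against 29.8, 33.5, 31.0 and 23.4 CPM in WT livers 1 to 4. The groups overlapped, and the log2 fold change was 0.07 (SE 0.15, 95% interval -0.25 to 0.40, edgeR adjusted p = 0.9997), or -0.03 without WT livers 3 and 4. Prox1, on the minus strand of the same chromosome from 190118035 to 190170714, had 36.8, 35.4, 47.2 and 42.4 CPM in QKO livers 1 to 4 and 34.9, 34.6, 62.9 and 37.9 CPM in WT livers 1 to 4. Its QKO livers all lay inside the WT range, and the log2 fold change was -0.08 (SE 0.20, 95% interval -0.52 to 0.36, edgeR adjusted p = 0.9997), or 0.22 without WT livers 3 and 4. For Hnf4a, Onecut2, Nr5a2 and Prox1 the interval thus ended at a log2 change of 0.53 or less on either side.

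**Figure D1:**
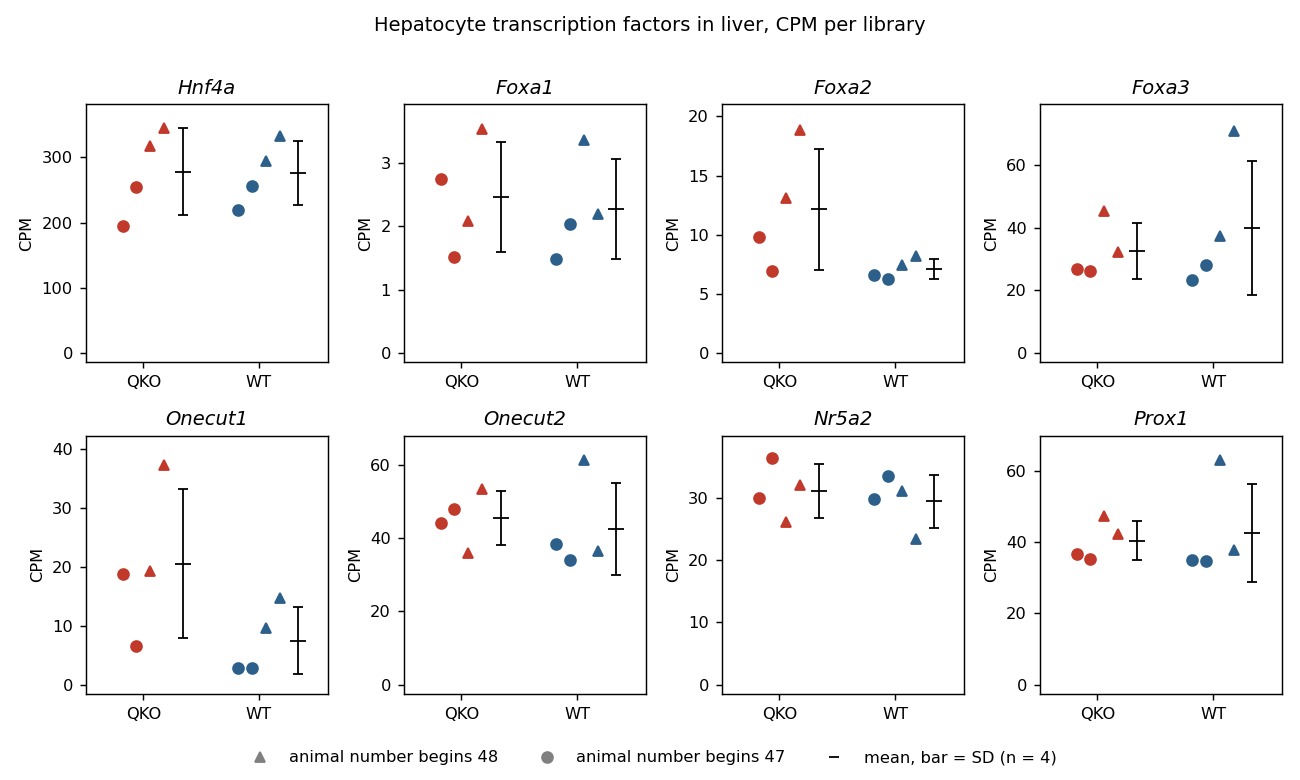
CPM of each factor in the 4 QKO livers (left, red) and the 4 WT livers (right, blue), with triangles for animals whose numbers begin with 48 and circles for 47; the bar is mean and SD. For Foxa2 and Onecut1, 3 of 4 QKO livers lie above the highest WT liver, and for the other factors the groups lie over one another.

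Of the 8 factors, 0 passed in QKO over WT liver by edgeR, beside 0.0846% of all genes tested, and 2 of them, Foxa2 and Onecut1, had an unadjusted p under 0.05. DESeq2 also called 0 of them. A p that misses the threshold does not show equal levels: the intervals of Foxa2 and Onecut1 reached log2 changes of 1.33 and 2.69. Over the 8 livers, after removal of genotype means, the log2 levels of Foxa2 and Onecut1 had a Pearson r of 0.80. Other pairs of the factors had values of similar size, with -0.82 for Foxa3 and Nr5a2 and 0.77 for Foxa1 and Onecut1. These values are descriptions over libraries that share their depth and animal with each gene.

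**Figure D2:**
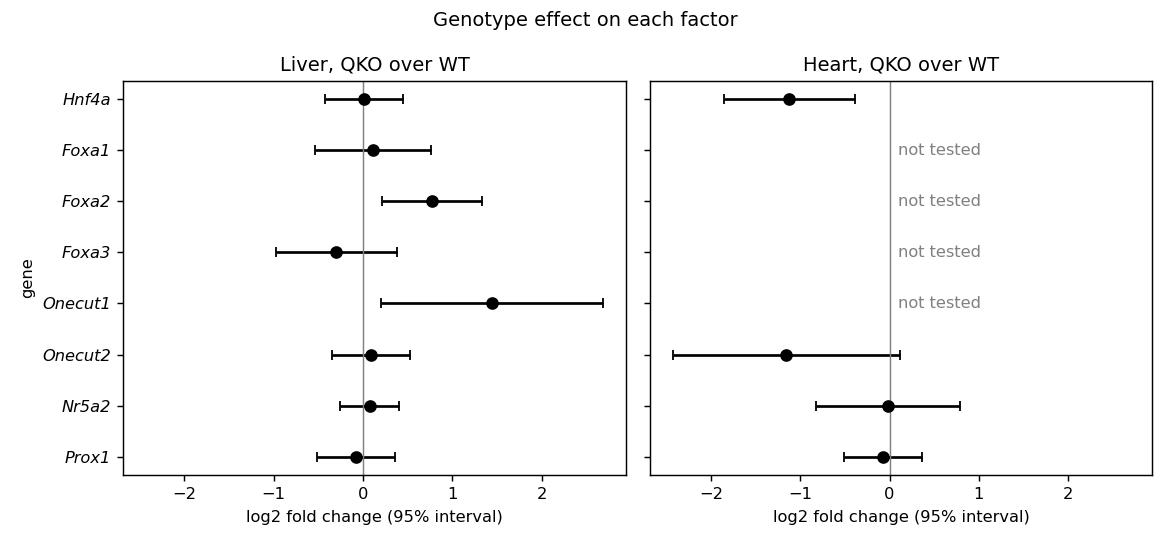
Log2 fold change of QKO over WT for each factor in liver (left) and heart (right), with its 95% interval from edgeR. In liver the intervals of Foxa2 and Onecut1 lie above 0 and the other 6 include 0; in heart the interval of Hnf4a lies below 0, and no factor passed after adjustment over all genes.

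Per kb, the order of the factors in QKO liver was Hnf4a with 57.6 ± 13.9, Foxa3 with 16.01 ± 4.33, Nr5a2 with 5.27 ± 0.72, Foxa2 with 5.13 ± 2.15, Onecut1 with 4.99 ± 3.08, Prox1 with 4.82 ± 0.65, Onecut2 with 2.80 ± 0.45 and Foxa1 with 0.741 ± 0.260 CPM per kb (SD, n = 4). In WT liver it was Hnf4a with 57.0 ± 10.1, Foxa3 with 19.6 ± 10.5, Prox1 with 5.07 ± 1.63, Nr5a2 with 4.99 ± 0.73, Foxa2 with 3.00 ± 0.37, Onecut2 with 2.62 ± 0.78, Onecut1 with 1.82 ± 1.40 and Foxa1 with 0.681 ± 0.237 CPM per kb. Over WT livers 1 and 2 alone the means were 49.2 for Hnf4a, 12.65 for Foxa3, 5.37 for Nr5a2, 4.14 for Prox1, 2.71 for Foxa2, 2.23 for Onecut2, 0.698 for Onecut1 and 0.528 for Foxa1, so Nr5a2 and Prox1 changed places. Hnf4a and then Foxa3 stood clear of the next factor in both genotypes. In QKO liver the neighbours from Nr5a2 to Prox1 overlapped in range, and in WT liver Prox1 overlapped Nr5a2, and the neighbours from Foxa2 to Foxa1 overlapped. In heart the first place was held by Prox1, with 3.51 ± 1.14 in QKO heart and 3.66 ± 0.74 in WT heart, followed by Hnf4a with 0.136 ± 0.018 in QKO heart and 0.294 ± 0.140 CPM per kb in WT heart.

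Between tissues, 7 of the 8 factors passed as higher in liver in each genotype, beside 37.1% of 18039 genes in QKO and 36.9% of 18204 genes in WT mice that did so. In either direction 74.3% passed in QKO and 72.5% in WT mice. The log2 fold changes of liver over heart in QKO mice were 8.70 for Hnf4a, 8.97 for Foxa2, 9.65 for Foxa3, 6.93 for Onecut1, 7.60 for Onecut2 and 6.48 for Nr5a2. In WT mice they were 7.56 for Hnf4a, 6.49 for Foxa1, 6.77 for Foxa2, 8.82 for Foxa3, 5.14 for Onecut1, 6.33 for Onecut2 and 6.44 for Nr5a2. The largest adjusted p among these 7 factors was 7.62e-07 in QKO and 4.4e-05 in WT mice (edgeR), and in none of them did a heart library reach the lowest liver library.

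Several of these heart levels rested on few counts. Foxa1 had 0 counts in the 4 QKO hearts, which with a floor of 3 counts over the group makes its mean level at least 157-fold higher in QKO liver, and it had 4 counts in the 4 WT hearts. Foxa2 had 4 counts in QKO hearts and 11 in WT hearts, 9 of them in WT heart 1. Foxa3 had 7 counts in QKO hearts and 15 in WT hearts. These 3 genes and Onecut1, with 31 counts in QKO hearts and 35 in WT hearts, were below the filter in the heart comparison and were not tested there.

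The interaction of genotype and tissue, over all 16 libraries, passed for 1 of 19587 genes (0.00511%) and for none of the 8 factors (edgeR, 784 genes at an unadjusted p under 0.05, 13 genes called by DESeq2, which also called 0 factors). The smallest unadjusted p among the factors was 0.012 for Hnf4a, with a log2 difference of 1.14 (SE 0.41, adjusted p = 0.9999).

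In heart, Hnf4a was counted at a low level in every library. It had 0.745, 0.710, 0.627 and 0.546 CPM in QKO hearts 1 to 4, against 2.27, 1.58, 1.12 and 0.693 CPM in WT hearts 1 to 4. WT heart 4 lay within the QKO range, and the other WT hearts lay above it. The log2 fold change of QKO over WT was -1.12 (SE 0.34, 95% interval -1.85 to -0.39), with an unadjusted p of 0.00551 and an adjusted p of 0.5008 in edgeR. It was -0.61 within series 48 and -1.42 within series 47 (adjusted p of 0.6934 and 0.0617, 2 animals per group), and -1.28 (adjusted p = 0.1822) without both hearts numbered 4. Among the factors in heart, 0 of the 4 tested passed by edgeR or DESeq2, beside 0.165% of all genes, and Hnf4a was the 1 with an unadjusted p under 0.05, as were 1220 of the 16974 genes.

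The 17 hepatocyte markers were present in the same hearts, with none at 0 in any library. They summed to 870, 605, 473 and 348 per 1 M protein-coding counts in QKO hearts 1 to 4 and to 1653, 1089, 821 and 297 in WT hearts 1 to 4. Hnf4a followed the same order of libraries in each genotype. Per 100000 counts of the 17 markers, Hnf4a had 325 to 545 counts in QKO hearts and 511 to 876 in WT hearts, which overlapped with 306 to 615 in QKO livers and 391 to 663 in WT livers. All 17 markers had a negative log2 fold change in QKO over WT heart, with a median of -0.69 and 0 passing (edgeR, 3 at an unadjusted p under 0.05), against a median of -0.001 over all genes tested. Whether the hepatocyte transcripts came from cells of the heart was not tested, and neither was their part in the Hnf4a value. In these bulk samples, fewer cells of a type and less RNA per cell cannot be told apart either.

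Onecut2 in heart had 0.305, 0.199, 0.287 and 0.166 CPM in QKO hearts 1 to 4 and 1.28, 0.357, 0.136 and 0.258 CPM in WT hearts 1 to 4. WT heart 1 was far above the rest and the groups overlapped. The log2 fold change was -1.16 (SE 0.59, edgeR adjusted p = 0.7284), and it was -0.11 without WT heart 1. Nr5a2 had 0.227 to 0.418 CPM in QKO hearts and 0.208 to 0.426 CPM in WT hearts, with a log2 fold change of -0.01 (SE 0.37, edgeR adjusted p = 0.9959). Relative to 100000 counts of the hepatocyte markers, Nr5a2 had 138 to 329 counts in QKO hearts and 95.8 to 263 in WT hearts, above the 45.5 to 63.3 in QKO livers and the 46.6 to 61.7 in WT livers. Onecut2 had 121 to 226 counts in QKO hearts and 64.8 to 321 in WT hearts on that scale, against 62.9 to 95.2 in QKO livers and 57.4 to 122 in WT livers, and overlapped between tissues in WT mice.

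**Figure D3:**
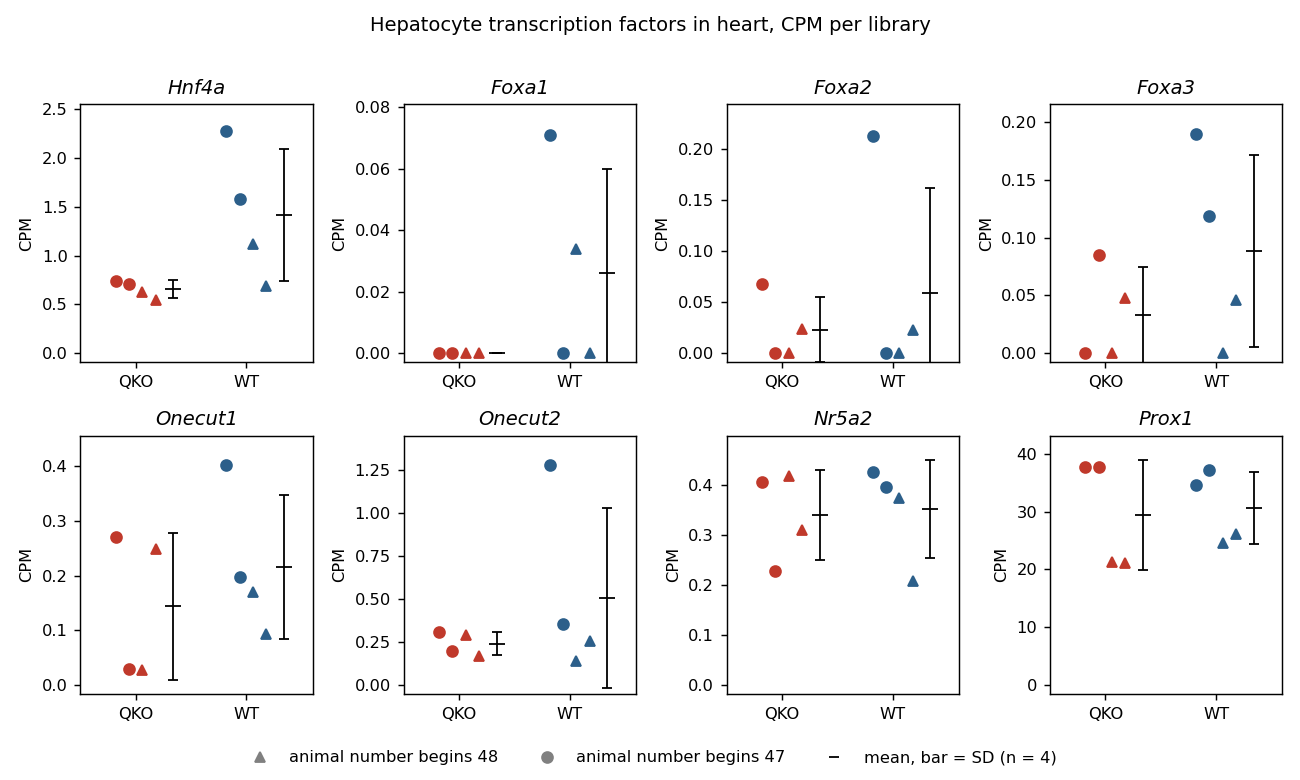
CPM of each factor in the 4 QKO hearts (left, red) and the 4 WT hearts (right, blue), with triangles for animals whose numbers begin with 48 and circles for 47; the bar is mean and SD, and bars that pass below 0 are clipped at the panel edge. Prox1 lies between 21.2 and 37.8 CPM and splits by animal number, and the other factors lie below 2.3 CPM.

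Prox1 was the factor that did not pass between tissues. Its level in heart was 37.7, 37.8, 21.2 and 21.2 CPM in QKO hearts 1 to 4 and 34.7, 37.2, 24.6 and 26.1 CPM in WT hearts 1 to 4. The log2 fold change of liver over heart was 0.39 (SE 0.21, 95% interval -0.06 to 0.84, edgeR adjusted p = 0.1043) in QKO mice and 0.41 (SE 0.21, 95% interval -0.07 to 0.88, adjusted p = 0.1076) in WT mice, and the tissues overlapped. In QKO mice this passed when no filter on low counts was used (0.46, adjusted p = 0.0296), and also without QKO heart 1 or without QKO heart 2, and the adjusted p ran from 0.035 to 0.276 over the left-out libraries. The direction depended on the scale. Per 1 M protein-coding counts, mean Prox1 was higher in heart, with 108.7 in QKO heart and 92.9 in QKO liver. In WT mice the means were 116.6 in heart and 102.7 in liver. The tissues overlapped on that scale too, and it was not tested. Per 100000 counts of the hepatocyte markers, Prox1 had 16450 to 23020 counts in QKO hearts and 7800 to 33050 in WT hearts, against 57.6 to 82.6 in QKO livers and 58.2 to 125 in WT livers. On this scale the ranges of the tissues did not overlap.

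**Figure D4:**
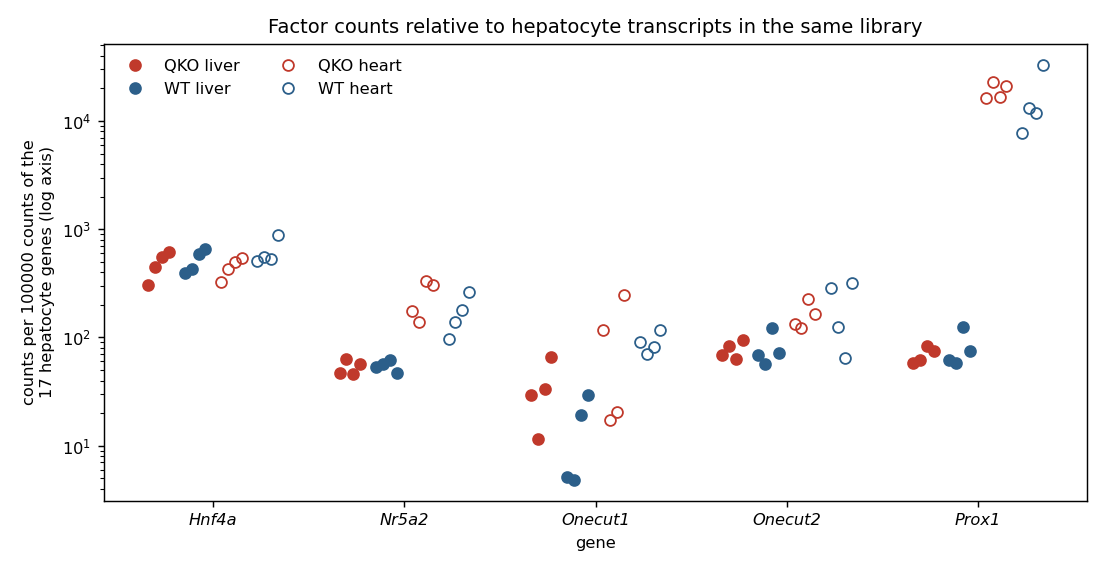
Counts of 5 factors per 100000 counts of the 17 hepatocyte markers of the same library, on a log axis, with filled points for liver and open points for heart. Hnf4a lies between 306 and 876 in all 16 libraries, and Prox1 lies at 7800 or above in every heart and at 125 or below in every liver.

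Markers of lymphatic endothelium, which also expresses Prox1, summed to 84.3 to 111 per 1 M protein-coding counts in QKO hearts and 110 to 138 in WT hearts, with at most 1 of 7 markers at 0. They summed to 272 to 412 in QKO livers and 238 to 314 in WT livers. The markers did not move together between tissues. Reln, with 198 to 283 in QKO livers and 187 to 234 in WT livers, made up most of the liver sums, and Reln and Flt4 were lower in every heart than in any liver. Mmrn1, Pdpn and Ccl21a were higher in every heart than in any liver, and Lyve1 and Tbx1 overlapped. For Mmrn1 this was 16.8 to 24.9 in QKO hearts and 19.1 to 34.3 in WT hearts, against 0.888 to 4.03 in QKO livers and 2.51 to 10.96 in WT livers. The part of these cells in the level of Prox1 was not tested. The antisense gene Prox1os shares 133 bases of exon with Prox1, which are 1.59% of its exons, and was higher in liver than in heart by a log2 of 1.22 (adjusted p = 0.0014) in QKO and 1.86 (adjusted p = 0.000105) in WT mice (edgeR). Between genotypes, Prox1 in heart had a log2 fold change of -0.07 (SE 0.20, 95% interval -0.51 to 0.36, edgeR adjusted p = 0.9515), and 2 QKO hearts lay above and 2 below all WT hearts.

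That split followed the animal numbers in the labels, which begin with 47 in libraries 1 and 2 and with 48 in libraries 3 and 4 of every group. What the series stands for is not given in the sources used here. The comparison of the series was chosen after these values were seen. Prox1 in heart had 21.2 to 26.2 CPM in series 48 and 34.7 to 37.8 CPM in series 47, with no overlap. The log2 fold change of series 48 over 47, with genotype in the fit, was -0.69 (SE 0.076, 95% interval -0.86 to -0.53, edgeR adjusted p = 0.00108), lower in 4 of 4 animals. It was -0.67 (adjusted p = 0.0116) without both hearts numbered 4, which both belong to series 48, and -0.76 to -0.64 when a library was left out. The sums of lymphatic markers overlapped between the series, with 107, 107.8, 136.7 and 138 in series 48 and 84.3, 110.2, 111 and 131.8 in series 47. In the heart, 187 of 16974 genes passed in this comparison (1.1%), 26 without both hearts numbered 4, and Prox1 was the only factor of the 4 tested that did.

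In liver, 7 of the 8 factors had a positive log2 fold change of series 48 over series 47 and Nr5a2 a negative one of -0.21, and none of the 8 passed by edgeR. Prox1 had 37.9 to 62.9 CPM in series 48 and 34.6 to 36.8 CPM in series 47, with a log2 fold change of 0.43 (SE 0.16, edgeR adjusted p = 0.2561). Hnf4a had 294 to 345 CPM in series 48 and 195 to 256 CPM in series 47 (log2 0.48, SE 0.14, adjusted p = 0.1911), and Foxa3 had 32.2 to 70.9 CPM in series 48 and 23.3 to 28.3 CPM in series 47 (log2 0.81, SE 0.21, adjusted p = 0.143). For these 3 factors every liver of series 48 lay above every liver of series 47. The share of all genes that split in this way, or that had a positive change, was not counted. Onecut1 was higher by a log2 of 1.6005 (SE 0.34, adjusted p = 0.0921) and Foxa2 by 0.61 (SE 0.18, adjusted p = 0.1937), with ranges that overlapped. The WT livers of series 48 are WT livers 3 and 4, which held acinar or skeletal muscle transcripts. Without them the log2 fold change was 0.58 for Hnf4a, 0.57 for Foxa3 and 0.34 for Prox1. It was then 1.18 for Onecut1, 0.96 for Foxa2 and -0.02 for Onecut2, and no factor passed.

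By edgeR, 0 of 17738 genes (0%) passed in this comparison in liver, with 2627 at an unadjusted p under 0.05, among them Hnf4a, Foxa2, Foxa3, Onecut1 and Prox1. DESeq2 called 533 genes, with Hnf4a, Foxa3 and Onecut1 among them. The share of all genes that DESeq2 called was not computed. The difference of the series effect between liver and heart was 1.10 for Prox1 (SE 0.19, unadjusted p = 2.13e-05, edgeR adjusted p = 0.0562) and 1.30 for Hnf4a (SE 0.28, adjusted p = 0.0927). It passed for 4 of 19587 genes (0.0204%) and for 0 of the 8 factors, with 2271 genes at an unadjusted p under 0.05. For Prox1 it passed in 7 of 21 alternatives. These were no filter (edgeR adjusted p = 8.5e-06), protein-coding genes alone (adjusted p = 0.0403), without WT livers 3 and 4 (adjusted p = 0.0124) and 4 of 16 left-out libraries. It did not pass without both hearts numbered 4 (adjusted p = 0.3425).

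**Figure D5:**
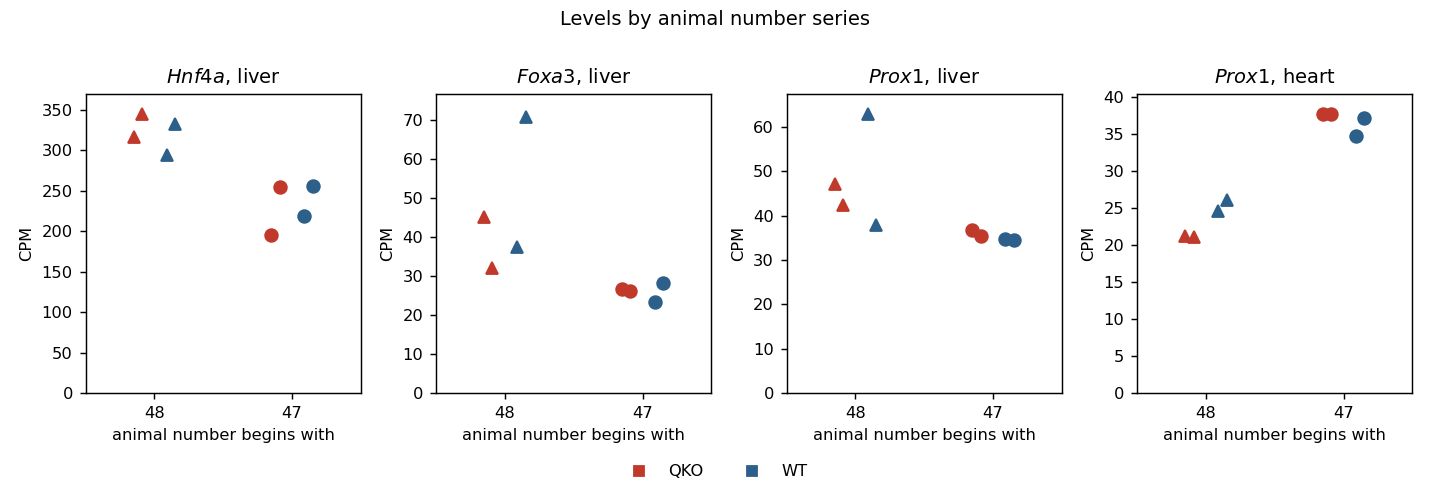
CPM of Hnf4a, Foxa3 and Prox1 in liver and of Prox1 in heart, by the first digits of the animal number, 48 (left, triangles) and 47 (right, circles), with QKO in red and WT in blue. In liver every animal of series 48 lies above every animal of series 47 for these factors, and in heart Prox1 lies lower in series 48, between 21.2 and 26.2 CPM. The share of all genes that split in this way was not counted.

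Genes known as targets of the factors were described next to them, from lists chosen with earlier results of these data known. In liver none of the target genes passed in QKO over WT (edgeR, beside 0.0846% of all genes). Of 26 HNF4A targets, 20 had a positive log2 fold change, with a median of 0.10, against a median of -0.01 over all genes tested. The FOXA targets had 11 of 16 positive with a median of 0.09, the NR5A2 targets 10 of 13 with a median of 0.09 and the ONECUT1 targets 5 of 10 with a median of -0.04. These medians moved with the libraries used. Without WT livers 3 and 4 they were -0.028 for HNF4A, -0.106 for FOXA, -0.003 for NR5A2 and -0.196 for ONECUT1 targets, against 0.014 over all genes. Within series 48 they were 0.302 for HNF4A, 0.203 for FOXA, 0.215 for NR5A2 and 0.438 for ONECUT1 targets, and within series 47 they were -0.023, -0.049, 0.002 and -0.456 in the same order of lists. Apoa4, an apolipoprotein gene and the only target with an unadjusted p under 0.05, had a log2 fold change of 0.53 (SE 0.18, edgeR adjusted p = 0.9997). Cyp7a1, the rate-limiting enzyme of bile acid synthesis and a member of 3 of the lists, had -0.18 (SE 0.54, adjusted p = 0.9997). These 2 genes were named after their values were seen.

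Genes that act beside the factors did not pass in liver either. Of 15 cofactors, such as the coactivators and corepressors that nuclear receptors recruit, 6 were positive with a median of -0.02. Of 24 nuclear receptors of liver tested, 19 were positive with a median of 0.08, and of 24 other transcription factors of liver, 13 were positive with a median of 0.02. Together with the target lists, 0 genes passed by edgeR or under any alternative setting in this comparison.

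In heart, 0 genes of these lists passed by edgeR, beside 0.165% of all genes. The HNF4A targets had 1 of 22 tested positive with a median log2 fold change of -0.49, and the FOXA targets 1 of 14 with a median of -0.70. The ONECUT1 targets had 4 of 10 positive with a median of -0.53 and the NR5A2 targets 4 of 10 with a median of -0.22. Single libraries moved these medians. Without WT heart 1, which had the largest sum of hepatocyte markers, they were -0.128 for HNF4A, -0.288 for FOXA, -0.143 for ONECUT1 and -0.028 for NR5A2 targets. Without WT heart 4, which had the smallest, they were -0.923 for HNF4A, -1.019 for FOXA, -0.876 for ONECUT1 and -0.673 for NR5A2 targets. The cofactors had 2 of 15 positive with a median of -0.11, the nuclear receptors 10 of 23 with -0.04 and the other transcription factors 8 of 23 with -0.05, against -0.001 over all genes tested. Many of these targets are hepatocyte genes, and the part of the hepatocyte transcripts in these values was not tested. The target lists share genes with one another and with the hepatocyte markers, so the same gene can count in several lists. Within series 47 alone, 7 of the 14 FOXA targets, 3 of the 10 ONECUT1 targets and 2 of 24 HNF4A targets passed, beside 1 of 15 cofactors and 0.662% of all genes, with target medians of -0.90, -0.60 and -0.80. Within series 48, 0 genes of these lists passed by edgeR, beside 0.203% of all genes, with medians of -0.30 for FOXA, 0.11 for ONECUT1 and -0.10 for HNF4A targets. Without a filter on low counts 2 of 16 FOXA targets passed, beside 0.334% of all genes, and with the replicate number as a block 1 of 14 did, beside 0.295%.

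Between tissues, all 26 HNF4A targets, 16 FOXA targets and 13 NR5A2 targets, and 9 of the 10 ONECUT1 targets, were higher in liver in both genotypes, beside 37.1% of all genes in QKO and 36.9% in WT mice. Of 15 cofactors, 2 passed as higher in liver and 11 as lower in QKO mice, with 2 higher and 12 lower in WT mice. The nuclear receptors had 16 higher and 6 lower of 24 tested in QKO mice and 14 higher and 7 lower in WT mice. Of all genes, 37.2% passed as lower in liver in QKO mice and 35.6% in WT mice.

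For each factor, the protein-coding genes with the most similar levels over the 8 livers were taken, by the Pearson r of log2 CPM after removal of genotype means, among 8358 genes with a mean of 5 CPM or more (8359 for Foxa1). The libraries share depth, animal and series with every gene, and the highest of so many values of r over 8 libraries is large by its choice, so r is given as a description. Hnf4a was followed most closely by Gtf2e1 (r = 0.98), a subunit of the general transcription factor TFIIE, and Cacul1 (0.98). Foxa1 had Frmd4a and Utp15, at 0.98 each. Foxa2 had Notch1, a cell surface receptor, and C6, a complement component, both at 0.95. Foxa3 had Ppp1r14b and Zc3h10 at 0.98, and Onecut1 had Ddx20, an RNA helicase, and Prdm4 at 0.97. Onecut2 had Zfp369 and Zbed6 at 0.97, Nr5a2 had Sdha, a subunit of succinate dehydrogenase, and Mctp2 at 0.97, and Prox1 had Dctn4, a dynactin subunit (0.965). With genotype means left in, r ran from 0.23 for Foxa2 with C6 to 0.97 for Foxa1 with Frmd4a. For Hnf4a with Gtf2e1 it was then 0.59.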

How the data were processed

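The authors deposited raw counts, whole numbers of reads per Ensembl gene. Per the labels' protocols, stranded libraries came from total RNA of flash-frozen tissue after removal of ribosomal RNA, and reads were paired, of 75 bp each. Per the submitters' processing notes, HISAT2, featureCounts and limma were among the tools and mm10 was the build. The versions, the annotation and the strand setting are not given in the sources used here, so reads of overlapping genes may be shared. All 16 columns were mapped to libraries by the labels, and 0 were left over. Of 48709 identifiers, 48349 matched GENCODE release M21 without their version.

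Each comparison was tested in R 4.3.3 with edgeR 4.0.16 by its quasi-likelihood F test, after TMM scaling (trimmed mean of M-values) and the edgeR expression filter by group, with adjustment over all genes tested. The SE was derived from the F statistic, as the absolute log2 change over the root of F, and intervals are 95%. DESeq2 1.42.0, RLE scaling, no filter, 1 CPM in 4 libraries, protein-coding genes alone, left-out libraries, a replicate block, the animal series and a fit of all 16 libraries were alternatives. The procedure was tested on simulated data. Floors of 3 counts cover counting error only.

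Libraries of one group came from separate animals, and none of 24 replicate pairs was a copy, with a chi-square per gene of 23.5 or higher. Liver and heart were paired by animal in the labels (correlations of 0.038 to 0.145), and the animal as a block changed no call of a factor between tissues.

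The factors and all gene lists were chosen with earlier results of these data known. Levels per 1 M protein-coding counts leave out Lars2 and mitochondrial genes, while CPM and the tests keep them. The genes named are the 8 factors, the targeted genes, overlapping genes and the 2 genes per factor most alike over livers, unless stated otherwise, and 1 gene that this rule names is not reported here.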

Additional observations from a re-analysis of the deposited data

Results flagged for a closer look

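In 31 groups of 4 libraries, the gap between the highest or lowest library and its neighbour was set against the range of the group. The ratio exceeded Dixon's 95% critical value in 3 groups, and chance alone exceeds it in about 1 of 20 groups. Onecut2 in liver was highest in WT liver 3 with 61.31 CPM, and Prox1 in liver was highest in the same library with 62.91 CPM. That library also had acinar transcripts of 1760 per 1 M protein-coding counts, and the part of these in the values was not tested. Foxa2 in heart was highest in WT heart 1 with 0.2131 CPM, which stands for 9 counts. That library also had the largest sum of hepatocyte markers among the hearts, 1653 per 1 M protein-coding counts.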

How the results depend on the processing

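Of 1127 values under alternative settings, 992 were labelled unchanged. For a fold change this means the same direction and the same side of the threshold. Counts of genes and levels with this label could still shift. In QKO over WT liver, the count went from 15 to 20 genes without a filter. None of the alternatives made a factor pass in QKO over WT in liver or heart, or in the interaction. The 7 factors higher in liver than in heart passed in both genotypes under every alternative run. Depth limits the 4 factors with few heart counts, and how the authors counted shared exons limits Onecut1.

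In liver, the number of genes passing in QKO over WT was 50 with DESeq2, 9 with protein-coding genes alone, 33 within series 48 and 44 in 1 fit of all 16 libraries. In heart it was 64 with DESeq2, 102 without a filter, 108 within series 47, 16 in 1 fit of all 16 libraries and 18 to 25 when a library was left out. For the interaction it was 13 with DESeq2, 2 without a filter, 5 without WT livers 3 and 4 and 1 to 3 when a library was left out. The labels give the replicate numbers of QKO and WT libraries no shared origin. Deviations from group means correlated between same-numbered libraries at -0.117 to 0.16 in liver, with 1 of 4 pairs over 0.1, and at 0.047 to 0.413 in heart, with 3 of 4 over 0.1. In heart 7 of 8 libraries were most alike the one with their own number, and in liver 3 of 8, so a shared origin in heart was not settled. With the replicate block, 50 genes passed in heart and 0 in the interaction, Hnf4a in liver was -0.0090 and Nr5a2 in heart was 0.025, and it changed no call of a factor.

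Small log2 fold changes of QKO over WT turned sign under some settings. In liver, Hnf4a was -0.0027 under the 1 CPM filter, -0.0045 with the series as a term and -0.086 within series 47. Within series 47, Foxa3 was 0.033 and Prox1 0.047, and within series 48 Onecut2 was -0.12. Without WT livers 3 and 4, Foxa3 was 0.34, Nr5a2 -0.029 and Prox1 0.22. When a liver was left out, Hnf4a ran from -0.11 to 0.16, Foxa1 from -0.11 to 0.37, Foxa3 from -0.50 to 0.13, Onecut2 from -0.0093 to 0.32, Nr5a2 from -0.022 to 0.15 and Prox1 from -0.17 to 0.18. In heart, Nr5a2 was 0.013 with the series as a term, 0.37 within series 48 and 0.031 in 1 fit of all 16 libraries, Prox1 was 0.072 within series 47 and Onecut2 0.023 within series 48. When a heart was left out, Nr5a2 ran from -0.28 to 0.12 and Prox1 from -0.23 to 0.077. In the interaction, Prox1 was -0.014 without a filter, -0.013 under the 1 CPM filter, -0.0063 with protein-coding genes alone and -0.054 without both hearts numbered 4, and Nr5a2 was -0.079 without WT livers 3 and 4. When a library was left out these ran from -0.14 to 0.24 for Prox1 and from -0.11 to 0.38 for Nr5a2.

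The comparison of animal series and its alternatives were chosen after seeing the data. In liver, 533 genes passed with DESeq2, 1141 without a filter, 8 with protein-coding genes alone, 81 without WT livers 3 and 4 and 0 to 104 when a library was left out, with 3 of the factors among them with DESeq2 and 3 without a filter. The shares of all genes under these settings were not computed. In heart, 323 passed with DESeq2, 680 without a filter, 26 without both hearts numbered 4 and 30 to 343 when a library was left out. For the difference between tissues, 720 passed without a filter, 17 with protein-coding genes alone, 70 without WT livers 3 and 4, 0 without both hearts numbered 4 and 0 to 143 when a library was left out. Onecut2 in liver turned to -0.023 without WT livers 3 and 4 and ran from -0.017 to 0.34 when a library was left out. Nr5a2 in heart turned to 0.16 without both hearts numbered 4 and ran from -0.48 to 0.041 when a library was left out. The causes of these changes were not tested.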
